A study of Mus musculus with 9 samples.

Results

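The genes described here are 10 members of the YAP and TEAD pathway, followed in a mouse pancreatic cancer line lacking CD49b and in its wild-type counterpart, grown in culture and as tumours. They were chosen by symbol, matched to Ensembl identifiers through GENCODE M21, and are 10 of the 49671 genes in each count table. Yap1, Wwtr1 (which encodes TAZ) and Tead1 are the transcription factors and coactivators. Lats2, Amotl2 and Ajuba regulate them, and Ccn1, Ccn2, Ankrd1 and Axl are widely used target genes. All 10 were found in both tables and passed the filter on low counts in every comparison.

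In the Hippo pathway, MST kinases activate LATS kinases, which phosphorylate YAP and TAZ and so hold them in the cytoplasm. When the kinases are inactive, as in spread cells on a stiff matrix, YAP and TAZ enter the nucleus and activate genes through TEAD proteins, which bind the core motif GGAATG. Several targets, among them Lats2 and Amotl2, are themselves inhibitors of YAP. Integrins, the cell's receptors for matrix, are among the inputs that keep YAP nuclear.

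The study set the line KPC49bKO (KO), which has lost CD49b, against the line KPCWT (WT). CD49b is integrin alpha 2, encoded by Itga2, and binds collagen together with the beta 1 chain. Poly(A) RNA was sequenced from 2 KO cultures, 2 WT cultures, 2 KO tumours and 3 WT tumours. Each genotype is 1 line, so the effect of the knockout and other differences between the lines cannot be told apart. Cultures were grown in DMEM with serum and taken before full confluence. Tumours grew under the skin of syngeneic C57BL/6 mice and were dissociated with enzymes, so that tumour libraries hold RNA of host cells too. The labels call the replicates biological and do not say what was separate, so p-values measure the spread between these samples. The batch tag in the labels separates cultures from tumours and nothing else. Libraries held 17738774 to 21247023 counts in culture and 16032912 to 19562695 counts in tumours.

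The promoters of 4 members are shown because these genes moved in different directions in the KO cultures although all hold the TEAD core. Each line gives the 250 bases before the gene's start, 5′ to 3′ on the gene's strand, from RefSeq on GRCm38.p6. Capitals mark GGAATG or its reverse complement CATTCC. The windows searched, which end 50 bases after the start, are chr3:145649936-145650235 (minus strand) for Ccn1, chr19:36119795-36120094 (minus strand) for Ankrd1, chr7:25788684-25788983 (minus strand) for Axl and chr9:102717554-102717853 (plus strand) for Amotl2.
Ccn1: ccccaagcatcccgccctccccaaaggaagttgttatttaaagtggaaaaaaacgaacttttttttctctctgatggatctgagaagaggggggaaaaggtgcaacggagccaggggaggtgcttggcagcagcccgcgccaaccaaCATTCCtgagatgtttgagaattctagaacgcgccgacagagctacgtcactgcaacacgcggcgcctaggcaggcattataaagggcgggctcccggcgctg
Ankrd1: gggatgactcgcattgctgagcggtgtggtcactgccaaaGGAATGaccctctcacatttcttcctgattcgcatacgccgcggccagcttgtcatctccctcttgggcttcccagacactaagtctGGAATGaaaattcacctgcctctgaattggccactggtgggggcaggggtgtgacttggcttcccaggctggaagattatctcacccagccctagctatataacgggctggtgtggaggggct
Axl: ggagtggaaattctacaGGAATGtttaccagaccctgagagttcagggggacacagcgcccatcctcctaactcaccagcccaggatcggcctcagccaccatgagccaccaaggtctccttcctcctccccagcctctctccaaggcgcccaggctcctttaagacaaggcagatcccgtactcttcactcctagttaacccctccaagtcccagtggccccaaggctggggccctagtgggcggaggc
Amotl2: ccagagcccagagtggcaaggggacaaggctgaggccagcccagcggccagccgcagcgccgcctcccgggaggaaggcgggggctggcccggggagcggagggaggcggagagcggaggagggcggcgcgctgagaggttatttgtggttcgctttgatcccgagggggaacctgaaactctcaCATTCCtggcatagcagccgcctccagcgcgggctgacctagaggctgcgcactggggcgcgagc

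RefSeq promoter windows were found for 8 of the 10 members, the exceptions being Ccn2 and Tead1. All 8 held GGAATG on one strand or the other, against 16.6% of the 27025 genes with a window (14.7% of 32851 windows). The core began 103 bases before the start in Ccn1, 65 in Amotl2, 233 in Axl, and 210 and 123 in Ankrd1. In Yap1 it began 141 bases before the start, in Wwtr1 136 (in the first of its 2 windows), and in Ajuba 186 and 164. In Lats2 it lay just after the start in 1 of its 2 windows. The AP-1 motif TGANTCA, searched likewise, was in 0 of the 8, against 8.97% of genes. The core was in 7 of 26 other Hippo pathway genes with a window. It was in 2 of 10 other genes of a 22-gene YAP and TAZ target signature described below. Of TEAD partners outside the 10 genes 4 of 6 held it, and of close relatives of the 10 genes 1 of 7. A match describes these letters and is not a site shown to be bound.

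Itga2 (chromosome 13, 114833081 to 114932100, minus strand, GRCm38 with GENCODE M21) checked the labels. It stood at 98.1 and 104 CPM (library-size-scaled counts, with TMM over all 9 libraries) in KO cultures, against 169 and 134 CPM in WT cultures. In KO tumours it stood at 44.7 and 63.9 CPM, against 118, 142 and 138 CPM in WT tumours. In both settings the KO values were below all WT values, as for 28.8% of the genes tested in culture and 26% in tumours. Itga2 fell by 0.64 ± 0.17 on the log2 scale (log2 fold change ± SE, here and below) in culture (edgeR adjusted p = 0.0135) and by 1.32 ± 0.18 in tumours (edgeR adjusted p = 0.00602). Without KO culture 1 (-0.59) or WT culture 1 (-0.45) the fall in culture was not called, nor was it in 1 fit of all 9 libraries (-0.60, edgeR adjusted p = 0.0528). The fall in tumours was called in that fit and without any one library. The labels do not say which part of the gene was disrupted, and the transcript was still present in every KO library.

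**Figure D1:**
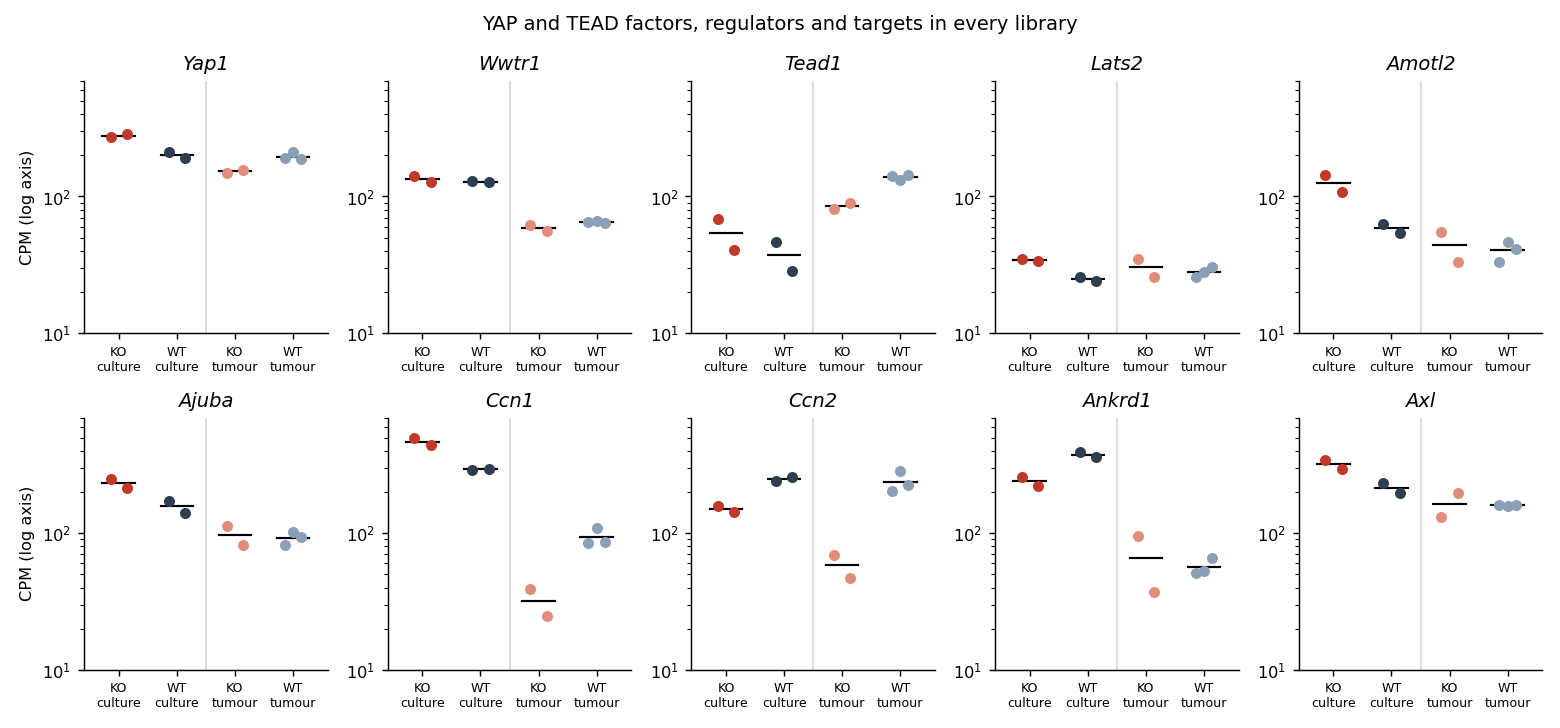
CPM (log axis) of the 10 genes in every library, as points, with the group mean as a line; columns run from KO culture and WT culture to KO tumour and WT tumour. Ccn1 is highest in KO cultures (443 and 495 CPM) and lowest in KO tumours (24.9 and 38.8 CPM).

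In culture, the KO line did not move its YAP targets in one direction. Ccn1, Axl and the regulators Amotl2 and Ajuba were higher in KO cultures, and Ccn2 and Ankrd1 were lower. Thus 6 of the 10 genes were called (edgeR quasi-likelihood test, Benjamini-Hochberg adjusted p under 0.05 over all 13573 genes tested), 4 higher and 2 lower. Of all genes, 25.5% were called, 9.27% higher and 16.2% lower. The CPM of the lines did not overlap for 8 of the 10, 6 higher and 2 lower, against 62.1% of all genes (33.3% higher and 28.8% lower). The median log2 fold change was 0.45 over the 10 genes and -0.00 over all genes.

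Ccn1 and Ccn2 encode matricellular proteins of the same family, secreted into the matrix, where they bind integrins. Ccn1 (chromosome 3, 145646976 to 145649981, minus strand) had 495 and 443 CPM in KO cultures, against 292 and 295 CPM in WT cultures. It was higher by 0.62 ± 0.16 on the log2 scale (edgeR adjusted p = 0.0125). Ccn2 (chromosome 10, 24595442 to 24598683, plus strand) had 159 and 142 CPM in KO cultures, against 241 and 258 CPM in WT cultures. It fell by 0.78 ± 0.16 (edgeR adjusted p = 0.00266). The pair thus moved apart, and neither gene's groups overlapped. An antisense gene, Gm15270, shares 665 exon bases with Ccn2, and the sources used here do not give the strand setting of the counting. Its own counts were 9 and 6 in KO cultures and 15 and 13 in WT cultures.

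Ankrd1 encodes a nuclear ankyrin repeat protein of muscle that YAP also induces in other cells. It lies on chromosome 19, 36111961 to 36120099, minus strand. It had 258 and 221 CPM in KO cultures, against 391 and 362 CPM in WT cultures, and fell by 0.71 ± 0.16 (edgeR adjusted p = 0.00661). Axl, a receptor tyrosine kinase that binds Gas6, lies on chromosome 7, 25757273 to 25788705, minus strand. It had 341 and 295 CPM in KO cultures, against 231 and 195 CPM in WT cultures, and was higher by 0.52 ± 0.17 (edgeR adjusted p = 0.0354).

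Among the regulators, Amotl2 had the clearest difference. Angiomotin family members such as Amotl2 bind YAP and hold it at junctions and in the cytoplasm. Amotl2 (chromosome 9, 102716672 to 102733418, plus strand) had 144 and 108 CPM in KO cultures, against 62.8 and 54.3 CPM in WT cultures. It was 2.08-fold higher (log2 fold change 1.06 ± 0.18, edgeR adjusted p = 0.000872). Ajuba, a LIM-domain protein that binds and restrains LATS kinases, lies on chromosome 14, 54567472 to 54577558, minus strand. It had 249.8 and 212 CPM in KO cultures, against 173 and 141 CPM in WT cultures, and was higher by 0.51 ± 0.17 (edgeR adjusted p = 0.0436). Lats2, the kinase itself (chromosome 14, 57689662 to 57758388, minus strand), had 34.7 and 33.7 CPM in KO cultures, against 25.6 and 24 CPM in WT cultures. Its log2 fold change of 0.41 ± 0.17 did not pass (edgeR adjusted p = 0.103), although the groups did not overlap. A gene on the same strand, Gm49361, shares 2955 exon bases with Lats2, and the sources used here do not say how reads there were divided.

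The coactivators and Tead1 were not called in culture. Yap1 (chromosome 9, 7931999 to 8004596, minus strand) had 272 and 286 CPM in KO cultures, against 213 and 192 CPM in WT cultures. Its groups did not overlap, and its log2 fold change was 0.41 ± 0.16 (edgeR adjusted p = 0.0742). Wwtr1 (chromosome 3, 57455649 to 57575910, minus strand) had 142 and 128 CPM in KO cultures, against 129 and 128 CPM in WT cultures, with a log2 fold change of 0.02 ± 0.15 (edgeR adjusted p = 0.952). Tead1 (chromosome 7, 112679318 to 112906807, plus strand) had 67.9 and 40.9 CPM in KO cultures, against 46.0 and 28.5 CPM in WT cultures. Its replicates spread widely, its groups overlapped, and its log2 fold change was 0.49 ± 0.26 (edgeR adjusted p = 0.19).

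Without 1 culture library, 3 to 6 of the 10 genes were called. Amotl2 and Ccn2 were called without any one of the 4 libraries. Ccn1 was not called when any one was left out, with log2 fold changes of 0.56 to 0.70 and edgeR adjusted p of 0.0507 to 0.148. Ajuba was not called without KO culture 1 (0.40), KO culture 2 (0.61) or WT culture 2 (0.37), and Axl without the same libraries (0.43, 0.62 and 0.41). Ankrd1 was not called without KO culture 2 (-0.61). Tead1 was called without KO culture 2 (0.81, edgeR adjusted p = 0.0105) or WT culture 1 (0.89, edgeR adjusted p = 0.00648), and stood at 0.097 without KO culture 1 and 0.19 without WT culture 2. Scaled by library totals alone, Ajuba and Axl were not called (edgeR adjusted p = 0.0826 for Ajuba and 0.0619 for Axl).

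In tumours both Ccn genes and Tead1 were lower in KO tumours, and none of the 10 genes was called higher. Thus 3 of the 10 genes passed the same test, all lower, while 19.7% of the 16257 genes tested were called, 10.9% lower and 8.78% higher. The CPM of the lines did not overlap for 5 of the 10, all lower, against 53.5% of all genes (26% lower and 27.5% higher). The median log2 fold change was -0.09 over the 10 genes and -0.01 over all genes.

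Ccn2 had 69.1 and 47.0 CPM in KO tumours, against 205, 286 and 225 CPM in WT tumours. It was 4.18-fold lower, with a log2 fold change of -2.06 ± 0.24 (edgeR adjusted p = 0.00382). The antisense gene Gm15270 had 9 and 9 counts in KO tumours and 48, 52 and 29 in WT tumours. Ccn1 had 38.8 and 24.9 CPM in KO tumours, against 85.3, 109 and 86.0 CPM in WT tumours, and was 2.98-fold lower (-1.58 ± 0.24, edgeR adjusted p = 0.00799). For both genes every KO tumour lay well below every WT tumour.

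Ankrd1 had 95.4 and 37.2 CPM in KO tumours, against 50.9, 53.0 and 65.6 CPM in WT tumours. The 2 KO tumours lay on either side of the WT tumours, and the log2 fold change was 0.21 ± 0.37 (edgeR adjusted p = 0.715). Without KO tumour 3 it was 0.76 and called (edgeR adjusted p = 0.0243), and without KO tumour 1 it was -0.63. Ankrd1 is also a muscle gene, and skeletal muscle markers summed to 70.5 CPM in KO tumour 1 and 22.4 CPM in KO tumour 3, against 43.7 to 153 CPM in WT tumours. Their part in the Ankrd1 values was not tested. Axl had 131 and 196 CPM in KO tumours, against 160.2, 158 and 162 CPM in WT tumours (log2 fold change -0.00 ± 0.17, edgeR adjusted p = 0.994).

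None of the 3 regulators was called in tumours. Amotl2 had 54.7 and 33.3 CPM in KO tumours, against 33.2, 46.3 and 41.3 CPM in WT tumours, with a log2 fold change of 0.11 ± 0.24 (edgeR adjusted p = 0.788). Ajuba had 112 and 81.6 CPM in KO tumours, against 82.1, 102 and 93.4 CPM in WT tumours (0.04 ± 0.18, edgeR adjusted p = 0.891). Lats2 had 35.0 and 25.9 CPM in KO tumours, against 25.8, 27.9 and 30.6 CPM in WT tumours (0.09 ± 0.17, edgeR adjusted p = 0.742). The groups overlapped for all 3, and the sign of each turned without KO tumour 1.

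Tead1 was the factor that fell. It had 80.7 and 90.1 CPM in KO tumours, against 140.4, 131 and 145 CPM in WT tumours, a difference of -0.73 ± 0.11 on the log2 scale (edgeR adjusted p = 0.00918). Yap1 had 148 and 157 CPM in KO tumours, against 191, 209.9 and 188 CPM in WT tumours. Its groups did not overlap and its log2 fold change of -0.39 ± 0.12 did not pass (edgeR adjusted p = 0.0579). It passed with DESeq2 (-0.38, adjusted p = 0.0238), with library totals (-0.48, edgeR adjusted p = 0.0347) and with the stricter filter on low values, a CPM of 1 (-0.42, edgeR adjusted p = 0.0457). Wwtr1 had 61.6 and 55.7 CPM in KO tumours, against 65.4, 66.1 and 64.2 CPM in WT tumours (-0.18 ± 0.12, edgeR adjusted p = 0.313). Ccn1, Ccn2 and Tead1 were called without any one of the 5 tumour libraries.

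Markers of host cells differed between the tumours. The 16 fibroblast and pericyte markers summed to 573 and 782 CPM in KO tumours, against 1309 to 3359 CPM in WT tumours. Of the 16, 7 were called lower and 0 higher, beside 10.9% and 8.78% of all genes. In every tumour Col1a1 was the largest part, at 176 and 292 CPM in KO samples and 536.5 to 1415 CPM in WT samples. Other members overlapped, among them Rgs5, at 65.1 and 30.1 CPM in KO tumours and 29.9, 23.3 and 41.9 CPM in WT tumours. Acta2 and Cspg4 overlapped too. The 10 T and NK cell markers went the other way from the fibroblast and pericyte sum. They summed to 31.1 and 77.5 CPM in KO tumours and to 6.81 to 28.6 CPM in WT tumours. Of the 8 tested, 0 were called. The 13 endothelial markers summed to 74.2 and 132 CPM in KO tumours and to 194 to 312 CPM in WT tumours (3 called lower and 0 higher). The same list summed to 14.8 and 15.2 CPM in KO cultures and to 41.7 and 43.4 CPM in WT cultures. Its member Flt1 had 20.5 and 33.35 CPM in KO tumours, against 112, 106 and 111 CPM in WT tumours. In culture Flt1 had 3.73 and 2.84 CPM in KO samples, against 28.4 and 22.2 CPM in WT samples. The endothelial sum is thus not particular to host cells. The 7 epithelial markers summed to 10031 and 7758 CPM in KO tumours and to 4801 to 5904 CPM in WT tumours (2 called higher and 1 lower). They did not move together. Epcam had 34.4 and 40.8 CPM in KO tumours, against 106, 155 and 67.4 CPM in WT tumours. Krt7 overlapped, at 886 and 472 CPM in KO tumours and 630, 675 and 663 CPM in WT tumours. Fibroblasts and endothelial cells also express Ccn1, Ccn2 and Tead1, and the part of these cells in the tumour results was not tested. In bulk tumours fewer cells of a type and less RNA per cell cannot be told apart. Among the WT tumours, Ccn1 and Ccn2 were highest in WT tumour 2, where the fibroblast sum was lowest (1309 CPM). That order rests on 3 tumours and carries no test. In the cultures the fibroblast sum was 0.416 to 2.86 CPM, while the level of each of the 10 genes was at least 24 CPM. Culture levels do not give the share of host cells in the tumour values.

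The difference between the 2 settings was itself tested, in 1 fit of all 9 libraries. The KO effect in tumours was lower than that in culture for Ccn1, Ccn2 and Yap1, and for the other 7 genes the difference did not pass. Of the 16793 genes tested, 5.69% were called, 1.54% in this direction and 4.15% in the other. The median difference was -0.69 over the 10 genes and 0.05 over all genes. For Ccn1 the difference was -2.23 ± 0.28 on the log2 scale (edgeR adjusted p = 0.00236), the gene being higher in KO cultures and lower in KO tumours. For Ccn2, lower in KO samples of both settings, it was -1.31 ± 0.28 (edgeR adjusted p = 0.0222). For Yap1 it was -0.83 ± 0.18 (edgeR adjusted p = 0.0267), with both KO cultures above the WT cultures and both KO tumours below the WT tumours. The values for Tead1 (-1.24 ± 0.33, edgeR adjusted p = 0.0551) and Amotl2 (-0.98 ± 0.33, edgeR adjusted p = 0.111) missed the threshold. Both passed with DESeq2 (adjusted p = 0.0056 for Tead1 and 0.0383 for Amotl2). They also passed in edgeR with no filter (adjusted p = 6.94e-05 for Tead1 and 0.00482 for Amotl2). With 1 library left out, Tead1 ranged over -1.61 to -0.83 and Amotl2 over -1.35 to -0.66. For Ankrd1 the difference was positive, 0.89 ± 0.43 (edgeR adjusted p = 0.273). It was 0.085 without KO tumour 1, and 1.42 and called without KO tumour 3 (edgeR adjusted p = 0.00315).

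Without 1 library, 1 to 6 of the 10 genes were called for the difference, the 6 without KO tumour 3. Ccn1 kept its call without any one library. Ccn2 was not called without any one culture library (-1.23 to -1.37, edgeR adjusted p of 0.06 to 0.107). Yap1 was called only with all libraries or without KO tumour 3 or WT tumour 3. Without any one of the other 7 libraries its difference was -0.75 to -0.88 (edgeR adjusted p of 0.0554 to 0.129).

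**Figure D2:**
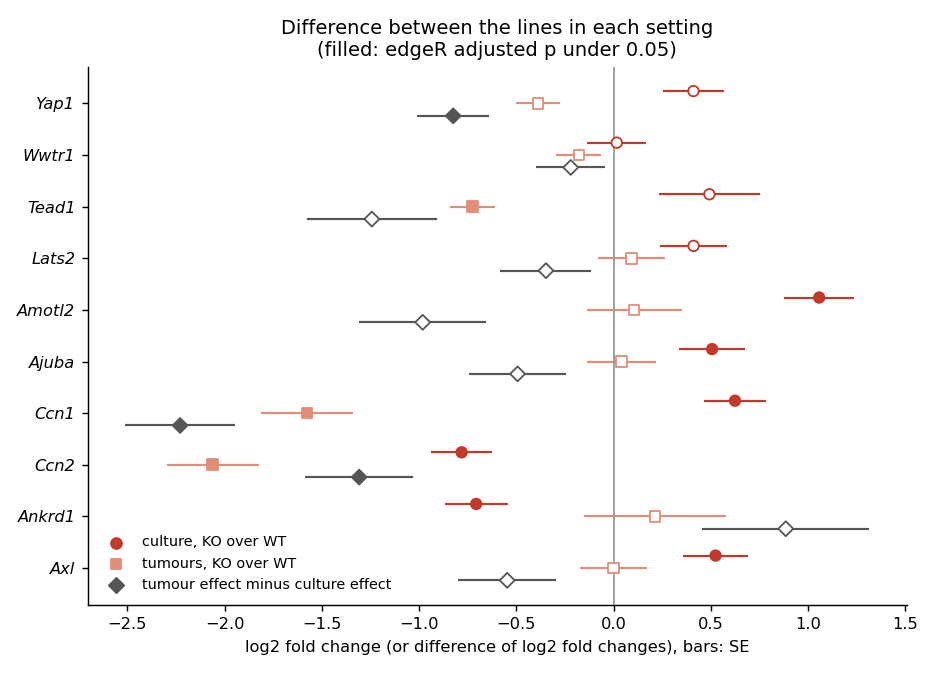
Log2 fold change of KO over WT in culture and in tumours, and the tumour effect minus the culture effect, for the 10 genes, with SE as bars and filled symbols where the edgeR adjusted p was under 0.05. Ccn1 lies at 0.62 in culture and at -1.58 in tumours, while Ccn2 lies below 0 in both.

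Ratios between genes within a library do not depend on scaling. Counts are not corrected for length, so only the change of a ratio between libraries can be read. The ratio of Ccn1 to Ccn2 counts was 3.12 and 3.11 in KO cultures, against 1.21 and 1.14 in WT cultures. It was 0.562 and 0.530 in KO tumours, against 0.416, 0.382 and 0.382 in WT tumours. It was thus higher in every KO library than in every WT library of its setting, and lower in tumours than in culture in both lines. The ratio of Ankrd1 to Ccn2 was 1.62 and 1.55 in KO cultures and 1.62 and 1.40 in WT cultures, where the groups overlapped. In tumours it was 1.38 and 0.792 in KO samples, against 0.248, 0.185 and 0.292 in WT samples. The ratio of Yap1 to Wwtr1 was 1.92 and 2.24 in KO cultures, against 1.64 and 1.5 in WT cultures, and 2.41 and 2.82 in KO tumours, against 2.91, 3.18 and 2.93 in WT tumours. The order of the lines in that ratio thus turned between the settings. These ratios were chosen after the values had been seen and carry no test.

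**Figure D3:**
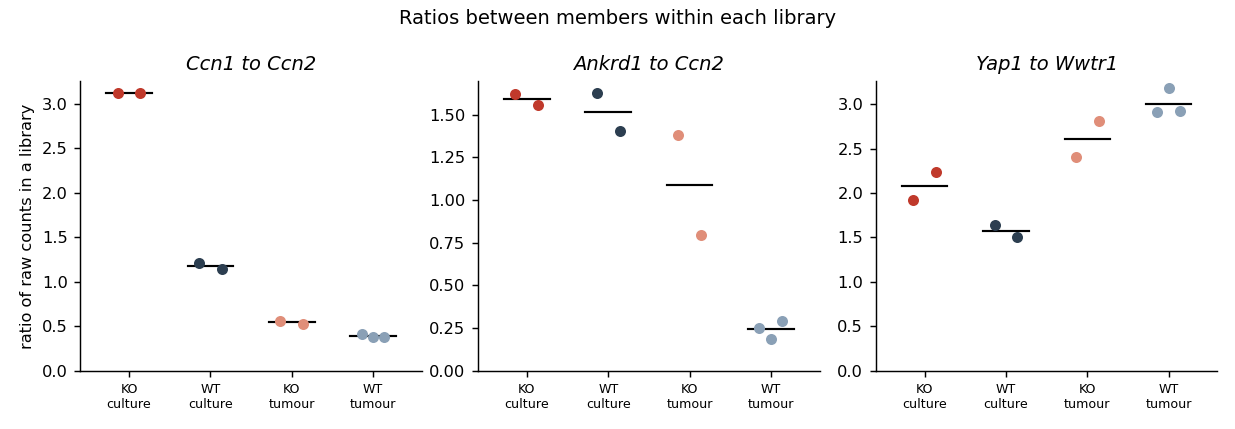
Ratio of raw counts of 2 genes within each library, as points, with group means as lines, for KO culture, WT culture, KO tumour and WT tumour. The Ccn1 to Ccn2 ratio is above 3 in KO cultures and under 0.6 in every tumour, and the Ankrd1 to Ccn2 ratio is under 0.3 in WT tumours and at least 0.792 elsewhere.

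Per length of exon, the coactivators stood above each TEAD factor in both cultures. Yap1 averaged 30.1 ± 1.08 RPKM (TMM-scaled CPM per kb of GENCODE M21 exon, mean ± SD) in KO cultures and 21.9 ± 1.57 RPKM in WT cultures (n = 2 each). Wwtr1 averaged 28.2 ± 2.04 RPKM in KO cultures and 26.9 ± 0.263 RPKM in WT cultures. Tead2 averaged 6.23 ± 0.540 RPKM in KO cultures and 9.16 ± 0.0955 RPKM in WT cultures, against 6.72 ± 1.71 and 3.64 ± 0.998 RPKM for Tead4. Tead1 averaged 4.01 ± 1.41 RPKM in KO cultures and 2.74 ± 0.916 RPKM in WT cultures, and Tead3 1.30 ± 0.573 and 1.08 ± 0.208 RPKM. In WT tumours the order was different: Tead2 averaged 19.5 ± 0.941 RPKM (n = 3), close to the 21.2 ± 1.30 RPKM of Yap1 and above the 13.6 ± 0.202 RPKM of Wwtr1. In KO tumours Yap1 averaged 16.5 ± 0.639 RPKM, Tead2 12.7 ± 3.08 RPKM and Wwtr1 12.3 ± 0.874 RPKM (n = 2).

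The TEAD genes, whose proteins bind the same motif, changed in different directions. Tead2 was lower in KO samples of both settings, by -0.61 ± 0.17 in culture (edgeR adjusted p = 0.0199) and -0.65 ± 0.18 in tumours (edgeR adjusted p = 0.0469). Tead4 was higher in KO cultures, by 0.83 ± 0.24 (edgeR adjusted p = 0.0241), and its log2 fold change in tumours was 0.55 ± 0.26 (edgeR adjusted p = 0.19). The Tead2 call in culture was lost without any one library (-0.53 to -0.69), that in tumours without any but KO tumour 1 (-0.39 to -0.72), and the Tead4 call without KO culture 1 (0.56) or WT culture 2 (0.58). Tead2 made up 31.1% and 38.3% of the summed TEAD RPKM in KO cultures, against 50.3% and 60.7% in WT cultures. In KO tumours its share was 53.3% and 44.9%, against 58%, 57% and 52% in WT tumours. The summed TEAD RPKM was 21.2 and 15.3 in KO cultures and 18.1 and 15.2 in WT cultures, which overlapped. It was 27.9 and 23.4 in KO tumours, against 34.8, 35.0 and 35.5 in WT tumours, which did not.

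Of the 7 TEAD partners outside the 10 genes (Tead2 to Tead4 and Vgll1 to Vgll4), 4 were tested in culture, with 1 higher and 1 lower, beside 9.27% and 16.2% of all genes. In tumours 5 were tested, with 0 higher and 3 lower, beside 8.78% and 10.9% of all genes. Vgll proteins bind TEADs in place of YAP. Vgll4, which represses TEAD targets, stood at 44.2 and 47.2 CPM in KO tumours, against 75.7, 84.9 and 61.1 CPM in WT tumours, lower by -0.72 ± 0.17 (edgeR adjusted p = 0.0297). The lower Vgll3 in KO tumours rested on 6 and 7 counts in KO tumours and 22, 27 and 51 counts in WT tumours (-2.07 ± 0.51, edgeR adjusted p = 0.0341). The Vgll3 call was lost without any one tumour library (-1.75 to -2.29) and that of Vgll4 without any but WT tumour 3 (-0.62 to -0.74).

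**Figure D4:**
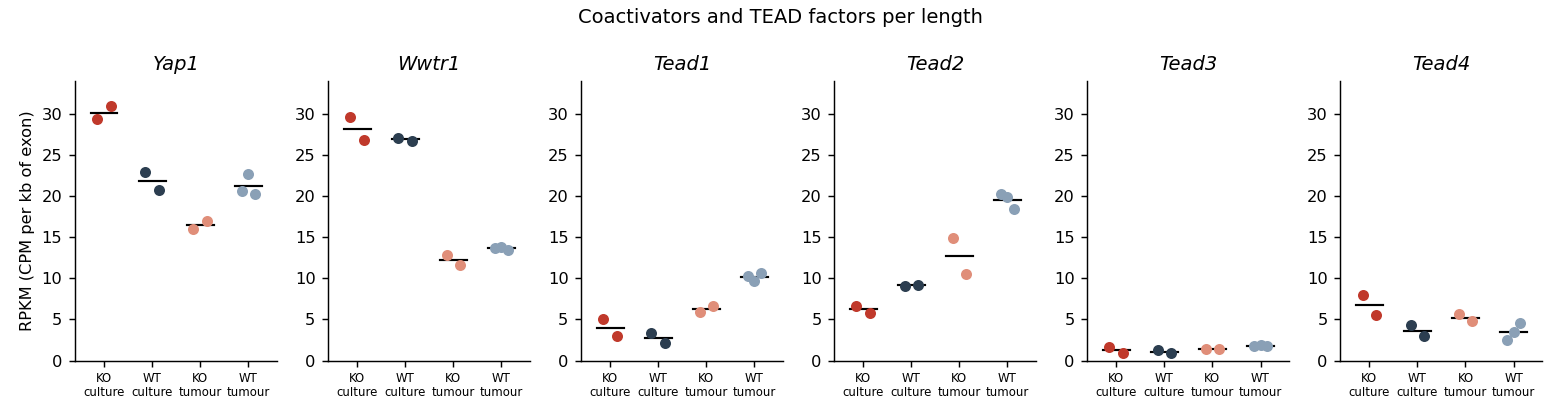
RPKM of Yap1, Wwtr1 and the 4 TEAD genes in every library, as points, with group means as lines, for KO culture, WT culture, KO tumour and WT tumour. Tead2 is below every WT sample in every KO sample of its setting, and Tead1 is so in tumours.

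Of 32 other Hippo pathway genes, 29 were tested in culture, with 3 higher and 5 lower, or 27.6%. Their median log2 fold change was 0.00, also with Wtip at its bound. In tumours all 32 were tested, with 0 higher and 7 lower, or 21.9%, and a median of -0.07. Of all genes, 9.27% were higher and 16.2% lower in culture, and 8.78% higher and 10.9% lower in tumours. Of the 32, 3 to 5 genes in culture and 3 to 9 in tumours were called without 1 library. Amotl1, an angiomotin family member like Amotl2, moved the other way from it in culture. It had 2.94 and 1.59 CPM in KO cultures, against 37.4 and 26.8 CPM in WT cultures, and was 14.4-fold lower (-3.85 ± 0.29, edgeR adjusted p = 1.7e-06). Amotl1 had 7.03 and 10.8 CPM in KO tumours, against 146, 147 and 132 CPM in WT tumours, and was 16.2-fold lower (-4.02 ± 0.22, edgeR adjusted p = 0.000487). Per length, Amotl2 averaged 20.1 ± 4.04 RPKM in KO cultures and 9.31 ± 0.950 RPKM in WT cultures, and Amotl1 0.225 ± 0.0945 and 3.19 ± 0.746 RPKM. In WT tumours Amotl1 averaged 14.1 ± 0.863 RPKM and Amotl2 6.41 ± 1.05 RPKM, whereas in KO tumours Amotl1 averaged 0.885 ± 0.263 RPKM and Amotl2 7.0 ± 2.41 RPKM. Amotl2 was thus the higher of the pair in KO samples of both settings and in WT cultures, and Amotl1 in WT tumours.

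Wtip, a LIM-domain relative of Ajuba, had 0 counts in both KO cultures and 18 in each WT culture, at least 12.4-fold lower with a floor of 3 counts over the group (edgeR adjusted p = 0.000627). Limd1, another relative, was higher in KO cultures by 0.66 ± 0.16 (edgeR adjusted p = 0.00774). So were Lats1, the other LATS kinase (0.52 ± 0.16, edgeR adjusted p = 0.0273), and Stk3, which encodes MST2 (0.54 ± 0.18, edgeR adjusted p = 0.0436). Wwc1, the scaffold KIBRA (-0.80 ± 0.20, edgeR adjusted p = 0.00969), Sav1, a scaffold of the MST kinases (-0.57 ± 0.16, edgeR adjusted p = 0.0199), and Amot (-0.69 ± 0.22, edgeR adjusted p = 0.0372) were lower. The calls of Lats1, Stk3, Sav1 and Amot were lost without any one culture library (edgeR adjusted p of 0.0514 to 0.322). That of Limd1 was lost without KO culture 1 or WT culture 2 (0.63 in both cases), and that of Wwc1 without KO culture 2 (-0.64) or WT culture 1 (-0.52).

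In tumours, Ptpn14, a phosphatase that binds YAP and is also a YAP target, had 27.1 and 16.2 CPM in KO samples, against 65.2, 72.5 and 74.3 CPM in WT samples (-1.73 ± 0.23, edgeR adjusted p = 0.00594). Frmd6, an upstream membrane protein, had 9.66 and 8.03 CPM in KO tumours, against 27.2, 34.3 and 21.3 CPM in WT tumours (-1.67 ± 0.25, edgeR adjusted p = 0.00825). Wtip (-2.83), the atypical cadherin Fat1 (-0.76), Nf2, which encodes merlin (-0.53), and Rassf5 (-0.84) were lower as well, with edgeR adjusted p of 0.0131, 0.0141, 0.038 and 0.0458 in that order. Without 1 library, the calls of Nf2 (4 of 5 libraries left out in turn, -0.45 to -0.60), Rassf5 (4 of 5, -0.68 to -0.93), Fat1 (WT tumour 1 or 2, -0.73 and -0.76) and Wtip (WT tumour 2, -2.61) were lost. The effect differed between the settings for 2 of the 32 genes, Stk3 (-0.96 ± 0.21, edgeR adjusted p = 0.0245) and Frmd6 (-1.27 ± 0.31, edgeR adjusted p = 0.0372), or 6.25%, against 5.69% of all genes. These calls were lost in 6 (Stk3, -0.84 to -1.03) and 7 (Frmd6, -1.09 to -1.35) of the 9 fits that left out 1 library.

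A 22-gene YAP and TAZ target signature drawn from human tumours, matched by mouse symbol, includes 6 of the 10 genes. In culture 20 of its genes were tested, with 6 higher and 7 lower, or 65%, beside 25.5% of all genes. Their median log2 fold change was -0.13, against -0.00 over all genes. In tumours all 22 were tested, with 2 higher and 7 lower, or 40.9%, beside 19.7% of all genes. The median there was -0.37, against -0.01 over all genes. Nt5e and Myof were the 2 higher in tumours, Myof not when WT tumour 1 or WT tumour 2 was left out (0.54 to 0.59). Leaving out the 6, culture had 3 higher and 5 lower of 14, and tumours 2 higher and 5 lower of 16. The signature thus moved in both directions in both settings. Without 1 library it had 10 calls in culture and 8 to 14 in tumours, the 14 without KO tumour 3.

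Nt5e, which encodes CD73, the enzyme that makes adenosine outside the cell, had 1169.6 and 1381 CPM in KO cultures, against 482 and 525 CPM in WT cultures (1.29 ± 0.18, edgeR adjusted p = 0.000227). Nt5e had 447 and 371 CPM in KO tumours, against 161, 133 and 110.4 CPM in WT tumours (1.57 ± 0.19, edgeR adjusted p = 0.00422). It was thus higher in KO samples of both settings. Arhgef17 had 7.91 and 5.26 CPM in KO cultures, against 22.2 and 12.8 CPM in WT cultures (-1.46 ± 0.29, edgeR adjusted p = 0.00266). It had 6.03 and 11.5 CPM in KO tumours, against 48.2, 62.3 and 60.4 CPM in WT tumours (-2.72 ± 0.29, edgeR adjusted p = 0.00308).

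Fjx1, a homologue of the fly gene four-jointed, had 0 and 3 counts in KO cultures, against 86 and 66 in WT cultures, a ratio of scaled counts of 0.0191 (95% exact binomial interval 0.0039 to 0.057, counting error only). In tumours it had 2.46 and 1.67 CPM in KO samples, against 59.3, 88.6 and 28.9 CPM in WT samples (-4.86 ± 0.58, edgeR adjusted p = 0.00406). Rbms3, which encodes an RNA-binding protein, was not tested in culture. It had 1 count in KO cultures and 11 in WT cultures, a ratio of scaled counts of 0.0881 (95% exact binomial interval 0.00205 to 0.606). Ccdc80, also not tested there, had 0 counts in KO cultures and 17 in WT cultures, at least 5.84-fold lower with a floor of 3 counts over the group. In tumours Rbms3 had 2.52 and 3.34 CPM in KO tumours, against 29.1, 37.0 and 23.6 CPM in WT tumours (-3.38 ± 0.28, edgeR adjusted p = 0.00152). F3, which encodes tissue factor, was lower in KO cultures (-0.73 ± 0.15, edgeR adjusted p = 0.00348) and not called in tumours, and the difference between the settings passed (1.00 ± 0.20, edgeR adjusted p = 0.018). Foxf2, a forkhead factor, had a difference of -1.43 ± 0.32 (edgeR adjusted p = 0.0286). With Ccn1 and Ccn2, these were the 4 signature genes whose effect differed between the settings. The calls of F3 (0.95 to 1.03) and Foxf2 (-1.12 to -1.57) were each lost in 5 of the 9 fits that left out 1 library.

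**Figure D5:**
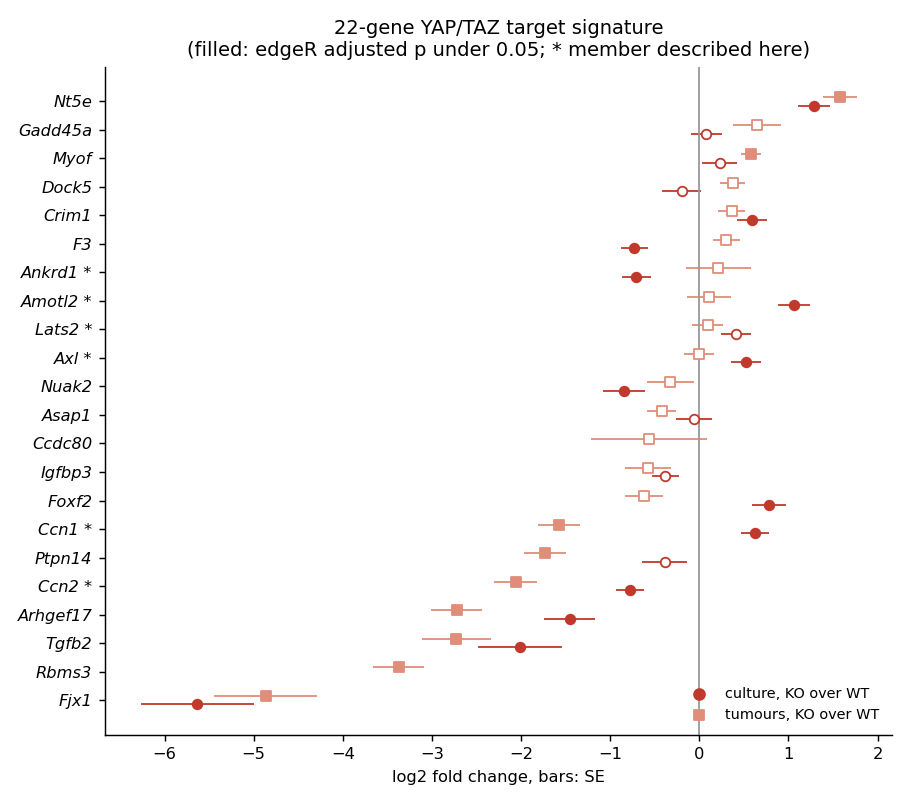
Log2 fold change of KO over WT for the 22 signature genes in culture and in tumours, with SE as bars and filled symbols where the edgeR adjusted p was under 0.05; asterisks mark genes among the 10. Nt5e is the highest in both settings and Fjx1 the lowest, its culture value resting on 3 counts in KO cultures; Rbms3 and Ccdc80 were not tested in culture.

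Gas6, the ligand of Axl, and a ligand of its sister receptors were lower in KO samples of both settings. Gas6 had 1 count in each KO culture, against 18 and 24 in WT cultures (edgeR adjusted p = 0.000749), a ratio of scaled counts of 0.0462 (95% exact binomial interval 0.00541 to 0.177). In tumours it had 4.33 and 4.90 CPM in KO samples, against 18.3, 31.6 and 13.5 CPM in WT samples (-2.22 ± 0.40, edgeR adjusted p = 0.0136), a call lost without KO tumour 1 (-2.14). Pros1, which encodes protein S, a ligand of the related receptors Tyro3 and Mertk, had 6 and 2 counts in KO cultures, against 246 and 230 in WT cultures (-5.95 ± 0.37, edgeR adjusted p = 4.08e-07). In tumours it had 2.58 and 5.66 CPM in KO samples, against 55.7, 48.6 and 51.7 CPM in WT samples (-3.68 ± 0.32, edgeR adjusted p = 0.00169). Host cells such as macrophages also make these ligands. Macrophage and monocyte markers summed to 280.1 and 412 CPM in KO tumours and to 232 to 399 CPM in WT tumours, which overlapped. In culture the same list summed to 192 and 202 CPM in KO samples and 219 and 226 CPM in WT samples. Most of that was Mrc1, at 188 to 221 CPM, so the sum does not measure macrophages alone. Per length, Axl averaged 63.2 ± 6.40 RPKM in KO cultures and 42.4 ± 5.07 RPKM in WT cultures, far above the 1.48 ± 0.1000 and 1.39 ± 0.223 RPKM of Tyro3. Tyro3 and Mertk were not called in culture (edgeR adjusted p = 0.929 and 0.707) or in tumours (0.381 and 0.733).

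Of the other relatives, Ccn3, Ccn5 and Ccn6 had at most 50 counts in any library. None of the 3 was tested in culture, where their counts were too low, and in tumours only Ccn3 was tested (-1.61 ± 0.79, edgeR adjusted p = 0.196). Ccn3 had 0 counts in KO cultures and 12 in WT cultures, at least 4.13-fold lower with a floor of 3 counts over the group. Ccn5 had 2 counts in KO cultures and 11 in WT cultures, a ratio of scaled counts of 0.176 (95% exact binomial interval 0.019 to 0.808). These bounds cover counting error only. Ccn4 had 6 and 0 counts in KO cultures and 0 and 4 in WT cultures. In tumours it had 38 and 39 counts in KO samples and 97, 78 and 334 in WT samples (-1.83 ± 0.62, edgeR adjusted p = 0.0845). Ankrd2 had at most 3 counts in a library. Ankrd23 was not called in culture (0.24 ± 0.42, edgeR adjusted p = 0.723) or in tumours (-0.51 ± 0.26, edgeR adjusted p = 0.215).

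Early response and heat shock genes, which respond to handling and to serum, also differed between the lines. Of 10 such genes, 4 were higher and 4 lower in KO cultures, beside 9.27% and 16.2% of all genes. In KO tumours 0 were higher and 2 lower, beside 8.78% and 10.9% of all genes. In culture Fos, Fosb, Egr1 and Ier2 were the 4 higher, and Jun, Dusp1, Hspa1a and Hspa1b the 4 lower. Egr1 was higher in KO cultures (1.75 ± 0.22, edgeR adjusted p = 7.47e-05) and lower in KO tumours (-1.21 ± 0.33, edgeR adjusted p = 0.0459), and the difference was -2.98 ± 0.45 (edgeR adjusted p = 0.00425). Dusp1 went the other way for the difference (1.28 ± 0.30, edgeR adjusted p = 0.032), being lower in KO cultures (-0.71) and at 0.59 and not called in tumours. The difference did not pass for the other 8 of these genes. Ccn1 is itself known as an early response gene, and the part of this response in its values was not tested. Mitochondrial transcripts made up 2.16% and 2.05% of counts in KO cultures, 4.72% and 3.39% in WT cultures, 3.33% and 2.69% in KO tumours and 1.9% to 2% in WT tumours.

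Tumours were also set against cultures of the same line. Setting, batch tag and host cells cannot be told apart here, and these comparisons share their libraries with each other and with those above. In KO tumours 9 of the 10 genes were called against KO cultures, 1 higher and 8 lower, beside 59.3% of all genes (32.9% higher and 26.4% lower). In WT tumours 6 were called against WT cultures, 1 higher and 5 lower, beside 65.7% of all genes (36.1% higher and 29.6% lower). The median over the 10 genes was -1.22 in the KO line and -0.47 in the WT line, against 0.17 over all genes in both.

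Tead1 was the gene called higher in tumours of both lines. It had 80.7 and 90.1 CPM in KO tumours against 67.9 and 40.9 CPM in KO cultures (0.66 ± 0.25, edgeR adjusted p = 0.0365), a call lost without KO culture 2 (0.34) or KO tumour 3 (0.57). In the WT line it was 3.75-fold higher in tumours (log2 fold change 1.91). Ccn1 was 14.6-fold lower in KO tumours than in KO cultures (-3.87 ± 0.23, edgeR adjusted p = 1.27e-06) and 3.12-fold lower in WT tumours than in WT cultures (-1.64 ± 0.18, edgeR adjusted p = 2.48e-05). Ccn2 was 2.58-fold lower in KO tumours than in KO cultures (log2 fold change -1.37). Its WT tumours and WT cultures overlapped, at 205, 286 and 225 CPM against 241 and 258 CPM (log2 fold change -0.06). Ankrd1 was lower in tumours of both lines, with log2 fold changes of -1.84 in the KO line and -2.73 in the WT line. Ajuba (-1.24 in the KO line and -0.75 in the WT line), Wwtr1 (-1.19 and -0.97 in the same order) and Amotl2 (-1.51 and -0.53) were lower in both. Amotl2 in the WT line passed narrowly (edgeR adjusted p = 0.0499). That call was lost in 4 of the 5 fits that left out 1 library (-0.41 to -0.64), with RLE scaling (-0.47, edgeR adjusted p = 0.0725) and with DESeq2 (-0.47, adjusted p = 0.0652). Yap1 was lower in KO tumours (-0.86) and at -0.04 in WT tumours.

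These values depend on the scaling, since TMM factors were 0.792 to 0.887 in cultures and 1.06 to 1.21 in tumours. With library totals alone, an alternative added after seeing the data, the median of all genes was 0.64 in the WT line and 0.60 in the KO line. The share of higher genes among those called was then 72.7% in the WT line and 74.4% in the KO line, against 54.9% and 55.5% with TMM. Yap1 was then higher in WT tumours (0.43, edgeR adjusted p = 0.0129), Ccn2 and Axl were at 0.42 and 0.06 in the WT line, and Lats2 at 0.27 in the KO line. Amotl2 (-0.06) and Ajuba (-0.28) were no longer called in the WT line, nor Axl (-0.51) in the KO line. The lower Ccn1, Ankrd1 and Wwtr1 and the higher Tead1 in tumours of both lines kept their calls.

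For Yap1 and the 4 targets, the genes with the most similar pattern over the 9 libraries were sought among 10900 genes with a mean of at least 5 CPM. The measure was the root mean square difference of log2(CPM + 1), each gene centred on its mean, which describes these libraries only. For Ccn1 they were Dtna (0.286), Tmem171 (0.362) and Pycr1 (0.383), against a median of 1.43 over all genes. Dtna had 20.8 and 19.4 CPM in KO cultures, 10.2 and 9.98 CPM in WT cultures, 0.117 and 0.431 CPM in KO tumours, and 2.55, 2.64 and 3.38 CPM in WT tumours. For Ccn2 they were Islr2 (0.209), Enah (0.223) and Frmd6 (0.275), against 0.982. Enah, an actin regulator of focal adhesions, had 54.4 and 47.5 CPM in KO cultures, 94.0 and 85.2 CPM in WT cultures, 18.6 and 19.7 CPM in KO tumours, and 100.5, 109 and 82.9 CPM in WT tumours. For Ankrd1 they were Sec61g (0.308), Fam213a (0.312) and Mrpl28 (0.332), against 1.23. For Axl they were Dcaf1 (0.0923), Gpr137b-ps (0.114) and Pdzd8 (0.115), against 0.559. For Yap1 they were Oxsr1 (0.0824), Tango6 (0.0914) and Sde2 (0.0933), against 0.523.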

How the data were processed

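Per the labels' protocols, poly(A) RNA libraries carried unique molecular identifiers, by which duplicates had been collapsed. The submitters' processing notes name GRCm38 as genome build and fastp 0.23.1, STAR 2.5.2b, Subread 1.5.2, featureCounts and DESeq2 as tools. They give no annotation release, strand setting or rule for reads with several positions. The authors deposited raw counts per Ensembl gene, 1 table per setting, and all values start from these counts. The deposited normalized and rlog tables were not used here. A KO tumour whose column carries the number 3 has no such number in the labels, so it was placed in its group only.

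Genes with enough reads by filterByExpr (minimum count 10, minimum total 15) were scaled by TMM. They were tested with edgeR 4.0.16 (quasi-likelihood F test, R 4.3.3), by a script that had been tested on simulated data. KO and WT were compared in each setting on its own libraries. The difference of the 2 effects, and tumours against cultures, were taken from 1 fit of all 9 libraries. P-values were adjusted by Benjamini-Hochberg over all genes tested, with a threshold of 0.05. Log2 fold changes use a prior count of 0.125, and their SE was derived from the F statistic. CPM are scaled by TMM over all 9 libraries, and RPKM divide them by the exon length in GENCODE M21. Where a group had 0 counts, a bound with 3 counts over the group is given, and with 1 to 3 counts a ratio with its 95% exact binomial interval. Both cover counting error only.

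Every one of the 10 genes is named in every comparison. Of the other pathway lists, up to 6 genes with the smallest p were named, together with the close relatives of the 10 genes. Stk3, Amot, Rassf5 and Myof were named beyond that rule, after their values were seen. The 10 genes, the lists and the tests were chosen with earlier results of these data known. Promoters were matched by symbol to a RefSeq table. A chi-square per gene between replicates was 6 for WT tumours 1 and 2 and 23 to 39.2 for the other pairs, so all pairs differed beyond sampling noise. The alternatives tried were RLE scaling, library totals, no filter, a CPM filter at 1, DESeq2 1.42.0, limma-voom (limma 3.58.1), a replicate block, the sum of WT tumours 1 and 2, other sets of libraries in the fit, and each library left out.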

Additional observations from a re-analysis of the deposited data

Results flagged for a closer look

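The effect of the knockout differed between tumours and culture, by the test of the difference itself, for 3 of the 10 genes, beside 5.69% of all genes. For Ccn1 the difference was -2.23 on the log2 scale, with the gene lower in KO tumours and higher in KO cultures. For Ccn2 it was -1.31, with the gene lower in KO samples of both settings. For Yap1 it was -0.83, with the KO tumours below the WT tumours and the KO cultures above the WT cultures. Neither effect passed the main test (edgeR with TMM scaling and filterByExpr) within its own setting. DESeq2, library totals and the filter of CPM 1 called Yap1 lower in tumours. In culture, 1 fit of all 9 libraries and the replicate block called Yap1 higher. With 1 library left out in turn, Ccn1 kept its call, while that of Yap1 was lost in 7 of 9 fits and that of Ccn2 in 4 of 9. Setting and batch tag cannot be told apart, and host cells are present in the tumours and not in the cultures.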

How the results depend on the processing

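Across RLE scaling, no filter, the CPM filter, DESeq2 and limma-voom, the 6 calls in culture, the 3 in tumours and the 3 for the difference remained. DESeq2, the CPM filter and library totals also called Yap1 lower in tumours. The difference had 6 of the 10 genes called with no filter (9 signature genes, 1875 genes in all) and 5 with DESeq2 (8 signature genes, 4 pathway regulators, 1625 in all). With no filter Tead1, Amotl2 and Ankrd1 were gained, and with DESeq2 Tead1 and Amotl2. The difference had 1 regulator with limma-voom. With WT tumours 1 and 2 summed it had 0 regulators and 565 genes in all, and Yap1 was not called (edgeR adjusted p = 0.0688). In tumours that sum left 4 regulators, 0 TEAD partners and 1288 genes in all. In culture, library totals or 1 fit of all 9 libraries left 1 TEAD partner, and that fit lost Ajuba, Ankrd1 (edgeR adjusted p = 0.186) and Axl and gained Yap1. A fit of only the 2 groups left 1 TEAD partner for KO tumours against KO cultures.

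The labels do not say that replicate numbers mark a shared batch or day. The log2 differences between replicates 1 and 2 correlated between the lines at 0.55 in culture over 13573 genes. In tumours the differences between columns 1 and 3 correlated at 0.0226, with WT tumour 2 left out. These are 2 pairs each, too few to establish a pairing. With a replicate block, culture had 9 of the 10 genes called, gaining Yap1 (0.41, edgeR adjusted p = 5.89e-08), Tead1 (0.49, edgeR adjusted p = 5.4e-07) and Lats2 (0.41, edgeR adjusted p = 0.000299), with 22 regulators and 7587 genes in all. In tumours, blocked by column number, 2 of the 10 were called (Tead1 was not), with 4 regulators, 0 TEAD partners and 1428 genes in all.

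Leaving out 1 library gave, in culture, 3 to 6 of the 10 genes, 3 to 5 regulators, 0 to 1 TEAD partners, 10 signature genes and 2130 to 2985 genes in all. In tumours it gave 3 to 4, 3 to 9, 0 to 1, 8 to 14 and 1171 to 4143 in that order, and for the difference 1 to 6, 0 to 2, 0 to 0, 1 to 7 and 288 to 1651. For WT tumours against WT culture it gave 5 to 6 of the 10 genes, 3 to 4 TEAD partners, 18 to 22 regulators, 12 to 14 signature genes and 8045 to 10668 in all, and for the KO line 8 to 9, 2 to 2, 22 to 24, 13 to 16 and 7224 to 9571. Amotl2 in the WT line was not called without WT culture 1, WT culture 2, WT tumour 1 or WT tumour 3 (edgeR adjusted p of 0.0755 to 0.201), nor with RLE scaling or DESeq2.

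Signs turned for 26 values. All but 1, Yap1 with library totals, were uncalled, and the cause was not tested. With library totals, Wwtr1 in culture was -0.00502, Lats2 and Ajuba in tumours were -0.00841 and -0.0581, Lats2 was 0.27 in KO tumours against KO culture, and Yap1, Ccn2, Itga2 and Axl were 0.43, 0.42, 0.28 and 0.0647 in WT tumours against WT culture. Axl in tumours was 0.00451 with RLE scaling and with DESeq2 and 0.0201 in 1 fit of all 9 libraries. In WT tumours against WT culture, Yap1 was 0.0247 with RLE scaling and 0.0246 with DESeq2, and Ccn2 was 0.00461 and 0.00462. With 1 library left out, Wwtr1 in culture ranged over -0.0435 to 0.0819. In tumours Lats2 ranged over -0.15 to 0.32, Amotl2 -0.30 to 0.44, Ajuba -0.21 to 0.28, Ankrd1 -0.63 to 0.76 and Axl -0.29 to 0.26. In WT tumours against WT culture Yap1 ranged over -0.12 to 0.0108 and Ccn2 over -0.21 to 0.0452, and Lats2 in the KO line over -0.38 to 0.0321. Depth limited genes with few counts, such as Gas6, Fjx1, Wtip and Vgll3.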
